A study of Drosophila melanogaster with 15 samples.

Results

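Heads of male flies without a functional CBS gene were compared with heads of control males, using 7 of the 15 libraries of the study. The members were chosen by the genotype in the labels. Libraries labelled CBS-/-(5) (replicates 1 and 3) or CBS-/-(8) (replicates 1, 2 and 5) formed a group of 5, and the libraries labelled WT (strain 58492, replicates 1 and 3) a group of 2. The other libraries came from CSE-/- males (3 libraries) and from males without both genes (5 libraries). All males were naive and 5 days old, about 100 heads went into each library, and polyadenylated RNA was sequenced. CBS-/-(5) and CBS-/-(8) are lines made by CRISPR/Cas9 that carry a deletion of CBS. The control, a stock of the Bloomington center, carries the alleles y1, w1118 and DNAlig4169 and, inserted at ZH-2A, the transgene M{Act5C-Cas9.P.RFP-}, in which the Actin 5C promoter drives Cas9. The deletion lines, like the control, carry mutations in yellow and white. With a single control stock, the deletion and other differences in genetic background between the lines and this stock cannot be told apart.

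CBS encodes cystathionine β-synthase, which joins homocysteine with serine to form cystathionine, the entry step of the transsulfuration pathway. CSE, annotated in the fly as Cth, encodes cystathionine γ-lyase, which cleaves cystathionine to cysteine, and both enzymes can release hydrogen sulfide in side reactions. Homocysteine itself arises from methionine through S-adenosylmethionine, so the pathway links methyl group transfer, folate metabolism, glutathione synthesis and sulfide. In the nervous system sulfide is studied as a signalling gas and a neuroprotector.

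Reads counted on genes numbered 6850445 to 9219493 in the CBS-/- libraries and 8336766 and 7316556 in the control. Levels are given as CPM, the counts divided by library size and scaled by TMM factors, and 3 counts were taken as the floor of a library. Markers of photoreceptors, neurons and glia were present in every library, as heads should show, and all 13 markers of the male accessory gland lay at or under the floor in all 7 libraries. The libraries differed in markers of gut. The summed level of 37 midgut markers was 621 and 221 CPM in CBS-/-(5) and 44449, 12831 and 18019 CPM in CBS-/-(8), against 9218 and 26541 CPM in the control. The summed level of 10 fat body markers was 861 and 763 CPM in CBS-/-(5) and 460, 560 and 3910 CPM in CBS-/-(8), against 5510 and 7924 CPM in the control. This sum includes Yp1, Yp2 and Yp3, which make up most of it in the library at 3910 CPM. CBS-/-(8) replicate 5 stood apart in the yolk proteins, products of the female fat body: Yp1, Yp2 and Yp3 reached 603, 1158 and 1652 CPM there, while the other 4 CBS-/- libraries did not exceed 9.25, 39.8 and 120 CPM. In bulk RNA, fewer cells of a type and less RNA per cell cannot be told apart.

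**Figure D1:**
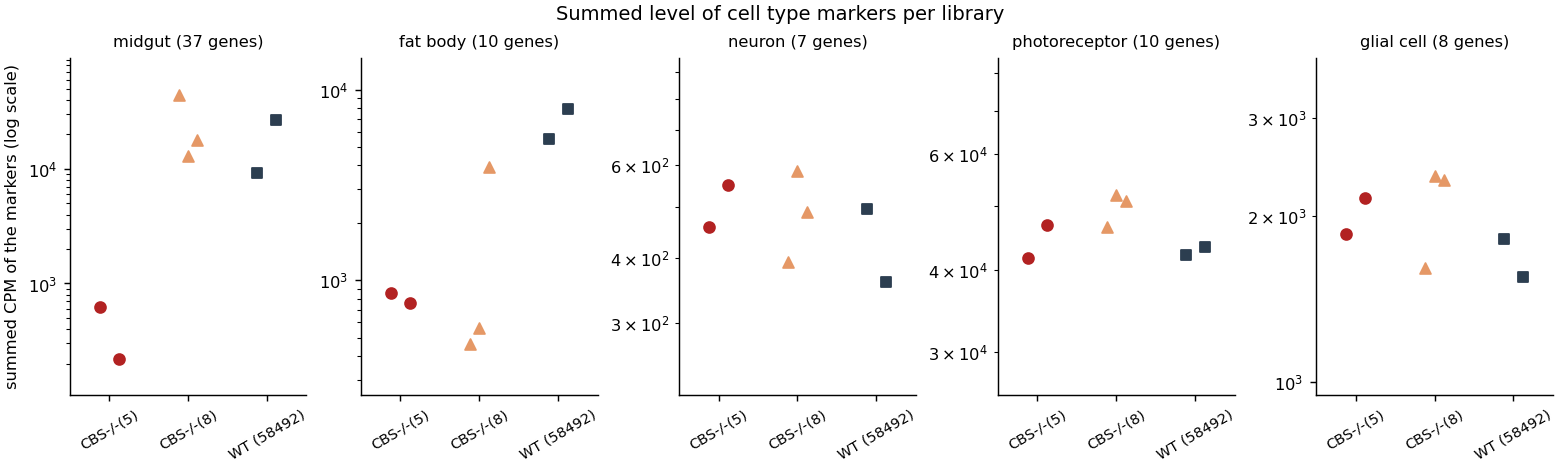
Summed CPM (log scale) of marker genes of 5 cell types, one point per library, for CBS-/-(5), CBS-/-(8) and WT (58492). Midgut markers lie at 621 CPM or less in both CBS-/-(5) libraries and at 9218 CPM or more in the other 5 libraries, and the fat body sum is 5510 and 7924 CPM in the control libraries, 3910 CPM in 1 CBS-/- library and at most 861 CPM in the other 4. The fat body sum includes Yp1, Yp2 and Yp3, at 603, 1158 and 1652 CPM in the library at 3910 CPM.

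Transcripts of the deleted gene were close to absent in all CBS-/- heads, which checks the labels. Cbs (FBgn0031148, chromosome X, 21045138 to 21049096 on dm6, plus strand) had 1.07 and 0.296 CPM in CBS-/-(5) and 1.25, 1.66 and 0.91 CPM in CBS-/-(8), against 185 and 221 CPM in the control. Its log2 fold change was -7.60 (SE 0.39, adjusted p = 4.8e-05, edgeR quasi-likelihood test). Of the 10 nearest annotated genes, 5 on each side, 5 had enough counts for a test and 1 was called. This was Mgstl, a microsomal glutathione transferase whose gene ends just upstream of Cbs. Mgstl had 23.6, 26, 24.9, 23.7 and 24.5 CPM in the CBS-/- libraries, against 42.3 and 51 CPM in the control (log2 fold change -0.92, SE 0.14, adjusted p = 0.0075). All 5 CBS-/- values lay below both control values, within a narrow range. The other tested neighbours, CG1529, Ntf-2, Stt3A and bves, overlapped between the groups.

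The other sulfide-producing genes did not pass the test. Cth had 41, 35.2, 71.4, 47.5 and 49.4 CPM in the CBS-/- libraries, against 34.8 and 42.3 CPM in the control (log2 0.34, SE 0.27, adjusted p = 0.444). CG12279, the mercaptopyruvate sulfurtransferase gene of the study, had 28.4, 28.4, 42.3, 18 and 26 CPM, against 31.9 and 45.3 CPM in the control (log2 -0.43, SE 0.29, adjusted p = 0.377). For both genes the groups overlapped. Sqor, which oxidises sulfide in mitochondria, was lower: 39.3, 36.7, 40.5, 30.2 and 33.2 CPM in the CBS-/- libraries, against 54.8 and 70.9 CPM in the control (log2 -0.80, SE 0.18, adjusted p = 0.0319). This call was lost when any single library other than CBS-/-(8) replicate 1 was left out.

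Across the 9496 genes tested, 497 were lower in CBS-/- heads (5.23%) and 137 were higher (1.44%) at an adjusted p under 0.05. Lower genes made up 78.4% of the calls, and their median log2 fold change was -1.41, while that of the higher genes was 1.14. Of the called genes, 633 of 634 lay outside the control range in all 5 CBS-/- libraries on the side of the call. Among all tested genes, 15.9% had all 5 CBS-/- libraries below both control libraries and 13.6% had all 5 above. In a fit with 3 groups, all 497 lower and all 137 higher genes had the same sign in each strain. These genes were called from the same libraries pooled, so their sign was nearly fixed by the selection. In that fit 292 of the lower and 58 of the higher genes were called in both strains, against the same 2 control libraries. The median log2 fold change of all tested genes was 0.05. The counts depended on single libraries. Without control replicate 3 they were 36 lower and 7 higher, and without control replicate 1 they were 285 and 68. Without CBS-/-(8) replicate 1 they were 997 and 477, and without the yolk-protein-rich CBS-/-(8) replicate 5 they were 321 and 54. The higher count was also 70 without either CBS-/-(5) library and 64 without CBS-/-(8) replicate 2. Of the 99 called genes named here besides Cbs, 20 were called without control replicate 3 and 63 without control replicate 1, and none changed sign. Besides Cbs, 7 named genes were called under all settings that tested them. Of these Nepl5, Drsl4 and ninaD were tested under every setting, while CG31219, CG7386, Lsp1alpha and Erasp did not enter the test of genes with at least 10 counts in every library. GstE14, Obp19d, Obp8a, Rh2, RpL24, Sod1, Sqor and repo lost the call when any single library other than CBS-/-(8) replicate 1 was left out.

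**Figure D2:**
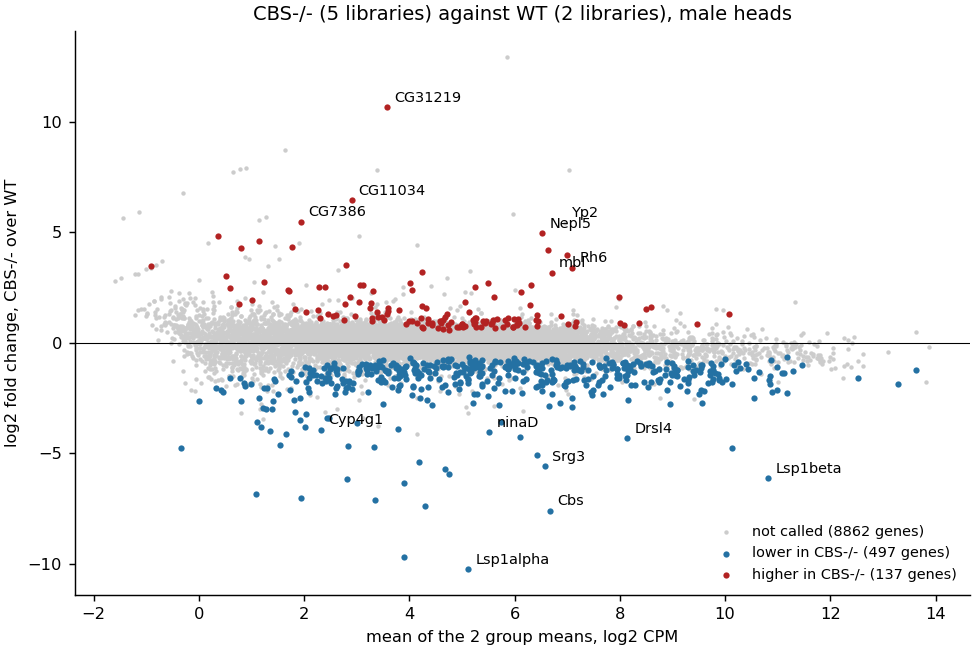
Log2 fold change of CBS-/- over WT against the mean of both group means (log2 CPM), one point per gene, with 497 genes lower in blue, 137 higher in red and the rest in grey. Lower calls outnumber higher calls at nearly every level, and Lsp1alpha and CG31219 mark the extremes at -10.24 and 10.68.

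The genes that fell most in CBS-/- heads included larval serum proteins, serine proteases, a lysozyme and a lipase. Lsp1alpha, a larval serum protein (a hexamerin that stores amino acids), had 0 and 0.0985 CPM in CBS-/-(5) and 0, 0 and 0.101 CPM in CBS-/-(8), against 41.5 and 96.8 CPM in the control. All CBS-/- libraries lay at or under the floor, so the gene was at least 209-fold lower (adjusted p = 4.8e-05), taking 3 counts per library as the bound. Lsp1beta, another subunit, had 144 and 76.1 CPM in CBS-/-(5) and 10, 6.35 and 17.3 CPM in CBS-/-(8), against 3096 and 4035 CPM in the control (log2 -6.13, SE 1.07, adjusted p = 0.0138). Lsp2 behaved alike, with 191 and 160 CPM in CBS-/-(5) and 10.8, 12.9 and 22.6 CPM in CBS-/-(8), against 1512 and 2815 CPM in the control (log2 -4.76, SE 1.07, adjusted p = 0.0347). Both strains were far below the control, and CBS-/-(8) was the lower of the pair for Lsp1beta and Lsp2. The fat body marker sum given above moves with these genes because it contains them. Its other called member was apolpp, the lipophorin precursor, with 308, 318, 185, 309 and 315 CPM in the CBS-/- libraries, against 652 and 656 CPM in the control (log2 -1.19, SE 0.23, adjusted p = 0.0194).

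Among other genes of this kind, Srg3 had 1.66, 1.48, 5.8, 5.08 and 5.66 CPM in the CBS-/- libraries, against 140 and 233 CPM in the control (log2 -5.58, SE 0.51, adjusted p = 0.00127). Erasp had 0.314 to 1.48 CPM in the CBS-/- libraries, against 42.2 and 63.7 CPM in the control (log2 -5.92, SE 0.35, adjusted p = 8.55e-05). LysP, a lysozyme of the salivary gland, had 9.18, 9.26, 2.04, 0 and 4.45 CPM, against 189 and 148 CPM in the control (log2 -5.06, SE 0.90, adjusted p = 0.0141). By the rule that chose them, none of these overlapped between the groups. The serine protease genes CG33459 and CG17571, with CG7916, CG7953 and mag, a lipase secreted into the gut, completed the 12 largest decreases. CG33459 had at most 0.941 CPM in the CBS-/- libraries, against 24.4 and 34.8 CPM in the control (log2 -6.34, SE 0.56, adjusted p = 0.00108). CG17571, CG7916, CG7953 and mag differed widely between the control libraries themselves, at 5.97, 2.12, 8.49 and 5.71 CPM in replicate 1 and 53.7, 75.8, 91 and 32.8 CPM in replicate 3. Midgut markers were also higher in control replicate 3 than in replicate 1, and their part in these results was not tested.

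The genes that rose most included proteases, a splicing factor and a rhodopsin. CG31219, annotated as a serine endopeptidase (FBgn0051219, chromosome 3R, 19651018 to 19652430), had 24.6, 25.1, 26.8, 23 and 20.2 CPM in the CBS-/- libraries, against 0 CPM in both control libraries. It was at least 50.8-fold higher (adjusted p = 6.65e-05), with 3 counts per control library as the bound. Transcripts of this gene were thus detected in every CBS-/- library at a near constant level. CG7386, predicted to encode a zinc finger protein, had 8.01, 7.88, 9.57, 5.38 and 6.77 CPM, against 0.133 and 0.181 CPM in the control, at least 16-fold higher (adjusted p = 0.00108). CG11034, a dipeptidyl peptidase, had 4.69 and 4.43 CPM in CBS-/-(5) and 27.3, 17.7 and 19.7 CPM in CBS-/-(8), against 0.265 and 0 CPM in the control, at least 31.3-fold higher (adjusted p = 0.0241). CG31664 had 4.2 to 10.8 CPM, against 0.398 and 0.181 CPM in the control, at least 13.8-fold higher (adjusted p = 0.00651). These 4 genes were close to silent in control heads.

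Others rose from a measurable base. Nepl5, a neprilysin-like metallopeptidase, had 176, 197, 244, 109 and 163 CPM in the CBS-/- libraries, against 6.37 and 4.9 CPM in the control (log2 4.97, SE 0.40, adjusted p = 0.000984). Rh6, the green-sensitive rhodopsin of a subset of R8 photoreceptors, had 151 and 159 CPM in CBS-/-(5) and 460, 210 and 265 CPM in CBS-/-(8), against 23.2 and 24.1 CPM in the control (log2 3.40, SE 0.51, adjusted p = 0.00754). mbl, the muscleblind splicing factor, had 155, 123, 171, 273 and 217 CPM, against 15.7 and 26.1 CPM in the control (log2 3.17, SE 0.40, adjusted p = 0.00384). The lowest CBS-/- value of each of these genes was several times the highest control value. CG31205 had 365 and 332 CPM in CBS-/-(5) and 171, 152 and 179 CPM in CBS-/-(8), against 15.3 and 15.1 CPM in the control (log2 3.98, SE 0.48, adjusted p = 0.00356). CG10550 had 96.7 and 92.5 CPM in CBS-/-(5) and 290, 225 and 237 CPM in CBS-/-(8), against 12.1 and 8.34 CPM in the control (log2 4.20, SE 0.60, adjusted p = 0.00682). Among the remaining large increases, CG32750, an amide hydrolase, rose by 3.52 on the log2 scale (SE 0.31, adjusted p = 0.00108), and CG42329, an acyltransferase, by 3.19 (SE 0.41, adjusted p = 0.00394).

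**Figure D3:**
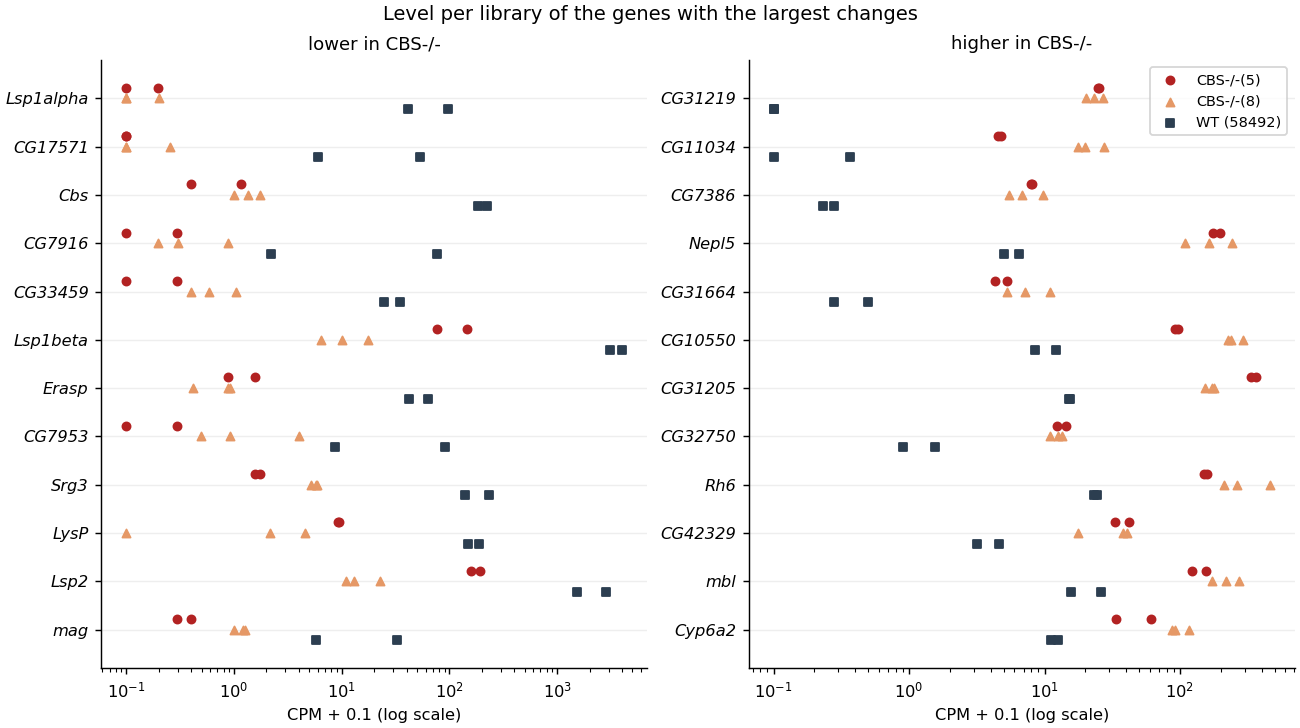
CPM + 0.1 per library (log scale) of the 12 genes with the largest decreases and the 12 with the largest increases outside the midgut markers, in CBS-/-(5), CBS-/-(8) and WT (58492). By the rule that chose the genes, all 5 CBS-/- libraries lie on one side of both control libraries in every row. CG31219 lies at 0 CPM in the control.

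Several genes around homocysteine were lower besides Cbs. Of 14 tested genes of the methionine cycle and one-carbon metabolism, 4 were lower (28.6%), against 5.23% of all genes. The median log2 fold change of the 14 was -0.58. None was higher by edgeR, by DESeq2 or at an unadjusted p under 0.05. Gnmt, which consumes S-adenosylmethionine to methylate glycine, had 269, 241, 535, 190 and 179 CPM in the CBS-/- libraries, against 989 and 1552 CPM in the control (log2 -2.17, SE 0.40, adjusted p = 0.0172). pug, an enzyme of folate interconversion, had 403, 401, 428, 308 and 380 CPM, against 1151 and 1506 CPM in the control (log2 -1.79, SE 0.19, adjusted p = 0.00214). CG7560, the methylenetetrahydrofolate reductase gene, had 36.1, 41, 34.2, 25 and 30.9 CPM, against 94.5 and 124 CPM in the control (log2 -1.71, SE 0.21, adjusted p = 0.00367). For all of these the highest CBS-/- value was well under the lower control value. Mtap, which recycles methylthioadenosine towards methionine, fell by 1.07 on the log2 scale (SE 0.21, adjusted p = 0.021). The remaining 10 members did not pass the test. In CSE-/- heads, scaled over all 15 libraries, Gnmt had 18.1 to 155, CG7560 30.7 to 55.5, Mtap 73.1 to 142 and pug 475 to 1178 CPM. Of these, only pug differed past the threshold between CBS-/- and CSE-/- heads (log2 -1.36, SE 0.28, adjusted p = 0.0473, edgeR). In serine synthesis, which supplies the other substrate of the deleted enzyme, CG6287 (phosphoglycerate dehydrogenase) had 575, 593, 536, 378 and 471 CPM, against 1197 and 1532 CPM in the control (log2 -1.42, SE 0.21, adjusted p = 0.00754), as 1 of 9 genes tested. In the methionine and one-carbon list 1 gene was called without control replicate 3.

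Few genes of glutathione metabolism were called. The lower shares, 7.69% of synthesis and thiol redox genes and 9.38% of glutathione S-transferases, were near the 5.23% of all genes. The higher share of the transferases was 6.25%, against 1.44% of all genes. Of 13 genes of glutathione synthesis and thiol redox, only Sod1, the cytosolic superoxide dismutase, was called, with 1280, 1311, 1848, 907 and 1126 CPM in the CBS-/- libraries, against 2336 and 3250 CPM in the control (log2 -1.11, SE 0.27, adjusted p = 0.0465). Gclc, the catalytic subunit of the rate-limiting enzyme of glutathione synthesis, had 27.7, 33.5, 33.7, 44.3 and 42.2 CPM, against 24.9 and 24.7 CPM in the control, and was not called (log2 0.55, SE 0.21, adjusted p = 0.154). Of 32 glutathione S-transferases, 3 were lower and 2 were higher. GstE11 had 33.5 to 75.9 CPM, against 132 and 191 CPM in the control (log2 -1.76, adjusted p = 0.0122). GstE5 had 10.1 to 25.6 CPM, against 4.25 and 2.18 CPM in the control (log2 2.34, adjusted p = 0.0317). GstE12 was also lower (log2 -1.19) and GstE14 higher (log2 0.78), so members of the epsilon class went opposite ways. As given above, the calls of Sod1 and GstE14 were lost without any library but CBS-/-(8) replicate 1.

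Of 70 cytochrome P450 genes tested, 15 were lower (21.4%), 2 were higher (2.86%) and 53 were not called. Over all genes the shares were 5.23% lower and 1.44% higher. The median log2 fold change of the 70 was -0.50. Cyp6a13 had 51.6, 49.4, 51.1, 43.3 and 51.6 CPM in the CBS-/- libraries, against 115 and 149 CPM in the control (log2 -1.42, SE 0.16, adjusted p = 0.00274). Cyp6t1 had 27, 26.4, 13.6, 17.2 and 18.8 CPM, against 79 and 106 CPM in the control (log2 -2.16, SE 0.26, adjusted p = 0.00373). Cyp4g1, the oenocyte enzyme of cuticular hydrocarbon synthesis, chosen after its values were seen, had at most 1.73 CPM, against 15.9 and 2.72 CPM in the control (log2 -3.92, SE 0.75, adjusted p = 0.019). Both control libraries of Cyp4g1 exceeded all CBS-/- libraries, but they differed from each other several fold. The higher pair was Cyp6a2, an enzyme known for metabolising insecticides, with 33.4, 61.3, 87.8, 91.4 and 116 CPM, against 11 and 12.5 CPM in the control (log2 2.73, SE 0.48, adjusted p = 0.0141), and Cyp6a9 (log2 1.69, SE 0.28, adjusted p = 0.0105). UDP-glycosyltransferases split, with 3 of 22 lower (13.6%) and 2 higher (9.09%). Ugt37B1 had 9.76 to 18.4 CPM, against 71.8 and 110 CPM in the control (log2 -2.79, SE 0.27, adjusted p = 0.00161), whereas Ugt36E1 had 22.3 to 31.6 CPM, against 4.91 and 3.63 CPM in the control (log2 2.69, SE 0.23, adjusted p = 0.00108). Only 1 P450 gene was called lower without control replicate 3.

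Of 8 genes of phenylalanine and tyrosine catabolism tested, 2 were lower, 1 was higher and 5 were not called. Over all genes 5.23% were lower and 1.44% higher. Hn, phenylalanine hydroxylase, had 522, 519, 439, 472 and 524 CPM in the CBS-/- libraries, against 860 and 1111 CPM in the control (log2 -0.99, SE 0.18, adjusted p = 0.0141). Dhpr, which regenerates its pterin cofactor, had 123 to 204 CPM, against 383 and 496 CPM in the control (log2 -1.33, SE 0.23, adjusted p = 0.0129). Hpd, which acts downstream of tyrosine, had 393, 423, 524, 663 and 686 CPM, against 168 and 202 CPM in the control (log2 1.54, SE 0.29, adjusted p = 0.0177). Gba1b, a glucocerebrosidase that degrades glucosylceramide, had 45.7 and 45.6 CPM in CBS-/-(5) and 31.2, 26.8 and 27.9 CPM in CBS-/-(8), against 145 and 201 CPM in the control (log2 -2.29, SE 0.26, adjusted p = 0.00271). It was the only one of 10 sphingolipid genes that passed the test. In metal handling, 2 of 13 genes were lower. Tsf1, the haemolymph transferrin, had 6721, 4763, 2964, 2998 and 4433 CPM, against 13969 and 17417 CPM in the control (log2 -1.84, SE 0.31, adjusted p = 0.0119), and the copper importer Ctr1B fell by 1.34 (SE 0.26, adjusted p = 0.0205). None of these genes was called without control replicate 3.

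Storage and carrier proteins had a median log2 fold change of -0.49. Their share of lower genes was the largest among the lists examined, 6 of 13 (46.2%), against 5.23% of all genes. Besides the larval serum proteins and apolpp these were Mtp, the microsomal triglyceride transfer protein that loads lipophorin, with 39.2 to 62.7 CPM in the CBS-/- libraries, against 113 and 118 CPM in the control (log2 -1.06, adjusted p = 0.0173), and the lipocalin NLaz, with 68.9 to 122 CPM, against 184 and 236 CPM in the control (log2 -1.23, adjusted p = 0.0181). None of 12 genes of fat storage and fatty acid synthesis was called by edgeR. At an unadjusted p under 0.05, 1 was lower and 1 was higher, as with DESeq2, and without CBS-/-(8) replicate 1 or 2 there was 1 call each. Digestive enzymes had 10 of 43 genes lower (23.3%, against 5.23% of all genes) and none higher by edgeR. At an unadjusted p under 0.05, 1 digestive enzyme was higher, and 1 with DESeq2. Their median was -6.20 in CBS-/-(5) and 0.45 in CBS-/-(8), and 30 of the 43 differed between the strains, as did the midgut markers. Among the lower genes, Jon99Fii, a serine protease gene, had at most 0.314 CPM, against 7.03 and 33.5 CPM in the control, at least 61.3-fold lower (adjusted p = 0.00174). Jon65Aii had at most 0.314 CPM, against 3.58 and 11.6 CPM in the control, at least 22.9-fold lower (adjusted p = 0.00394), and Amyrel, a paralogue of amylase, had at most 0.303 CPM, against 4.64 and 6.53 CPM in the control, at least 16.9-fold lower (adjusted p = 0.00108). Jon65Ai and Jon44E fell by 6.17 and 3.80 on the log2 scale. The midgut marker sum was 12831 to 44449 CPM in CBS-/-(8), and Jon99Fii and Jon65Aii, like that sum, were higher in control replicate 3 than in replicate 1. The part of gut material in these results was not tested. Reads of near-identical gut proteases can be shared between copies, so values of single copies are uncertain. Without control replicate 3, 3 digestive enzymes and 1 storage protein were called lower. With the strains as separate groups 31 digestive enzymes were called lower, and among genes with at least 10 counts in every library 3 were.

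Antimicrobial peptide genes went both ways. Of 27 tested, 4 were lower (14.8%) and 1 was higher (3.7%), against 5.23% and 1.44% of all genes. The median was 0.73, with 18 positive. At an unadjusted p under 0.05, 5 were lower and 9 higher, and DESeq2 called 4 lower and 3 higher. Drsl4, a drosomycin-like peptide, had 34.1, 25.1, 28.5, 18.5 and 28.7 CPM in the CBS-/- libraries, against 581 and 491 CPM in the control (log2 -4.31, SE 0.23, adjusted p = 4.8e-05). Its relative Drsl5 had 722, 420, 536, 350 and 402 CPM, against 1569 and 1938 CPM in the control (log2 -1.85, SE 0.28, adjusted p = 0.00749). The only gene called higher was Mtk, metchnikowin, with 261, 52.9, 170, 131 and 70.5 CPM, against 26.1 and 17.8 CPM in the control (log2 2.64, SE 0.65, adjusted p = 0.0488). Mtk varied several fold among the CBS-/- libraries and was not called without CBS-/-(8) replicates 2 or 5 or without either control library. Turandot stress peptides (4 tested) and heat shock proteins (16 tested) had no call by edgeR. DESeq2 called 1 Turandot gene lower and 1 heat shock gene higher, and at an unadjusted p under 0.05 there were 1 Turandot gene lower and 2 heat shock genes higher. A Turandot gene was also called without CBS-/-(5) replicate 3, and a heat shock gene without CBS-/-(8) replicate 1.

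Some neuronal genes were lower in several functional groups, while most members of each group were not called. Of 39 learning and memory genes 12 were lower (30.8%), against 5.23% of all genes, and the median of the list was -0.07. None was higher by edgeR, while 3 were at an unadjusted p under 0.05 and 1 with DESeq2. The list contains genes that the study picked from these libraries, so its count is not independent evidence. Potassium channels had 3 of 16 lower (18.8%), synaptic vesicle and active zone genes 4 of 24 (16.7%), and neurotransmitter receptors 4 of 31 (12.9%). Their median log2 fold changes were -0.32, -0.37 and 0.22. Of the 31 receptors, 18 had a positive log2 fold change. At an unadjusted p under 0.05, 6 receptors were lower and 6 higher, and DESeq2 called 5 lower and 3 higher. Sh, the Shaker potassium channel, had 9.37, 10.9, 11, 9.77 and 11.1 CPM in the CBS-/- libraries, against 30.5 and 32.5 CPM in the control (log2 -1.59, SE 0.15, adjusted p = 0.00161). SK, a calcium-activated potassium channel, had 3.81, 3.25, 2.04, 3.32 and 3.94 CPM, against 15 and 15.6 CPM in the control (log2 -2.21, SE 0.25, adjusted p = 0.00271). For both channels the control lay far above the highest CBS-/- library. eag, another channel needed for courtship memory, fell by 1.80 (SE 0.31, adjusted p = 0.0128), whereas Irk3, an inward rectifier and a marker of Malpighian tubule, had 22.4 to 35.8 CPM, against 8.1 and 12 CPM in the control (log2 1.58, SE 0.26, adjusted p = 0.0111).

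At the synapse, cpx, which clamps vesicle fusion, had 41.8, 39.9, 25.9, 52.1 and 34.5 CPM in the CBS-/- libraries, against 138 and 153 CPM in the control (log2 -1.90, SE 0.24, adjusted p = 0.00384). Syt1, the calcium sensor of release, had 25.1, 25.1, 19.4, 29.2 and 19.1 CPM, against 56.8 and 63.5 CPM in the control (log2 -1.35, SE 0.19, adjusted p = 0.00651). Rim, an active zone scaffold, fell by 1.16 on the log2 scale (SE 0.22, adjusted p = 0.0171), and cac, the presynaptic calcium channel, was lower as well (log2 -1.39, SE 0.30, adjusted p = 0.0324). Receptors called lower included the GABA receptor subunit Rdl, with 13, 10.8, 7.53, 12.7 and 15.5 CPM, against 26.4 and 27.4 CPM in the control (log2 -1.17, SE 0.25, adjusted p = 0.0278), and nAChRalpha5 (log2 -1.64, SE 0.32, adjusted p = 0.0197). None of these genes overlapped between the groups, like 633 of the 634 called genes.

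Second messenger and translational control genes of memory were also among the lower genes. Pka-C1, the catalytic subunit of protein kinase A, had 6.64, 8.38, 5.02, 10.6 and 9.6 CPM in the CBS-/- libraries, against 18 and 26.1 CPM in the control (log2 -1.45, SE 0.29, adjusted p = 0.0218). The regulatory subunit Pka-R2 (log2 -1.27, SE 0.23, adjusted p = 0.0149), calmodulin (Cam, log2 -1.11, SE 0.25, adjusted p = 0.0328) and the protein kinase C gene Pkc98E were lower too (log2 -1.38, SE 0.21, adjusted p = 0.00751). AGO1, the microRNA effector, had 10.1, 10.8, 6.27, 9.97 and 7.99 CPM, against 24.7 and 29.4 CPM in the control (log2 -1.57, SE 0.23, adjusted p = 0.00681). orb2, a regulator of local translation required for long-term memory, had 2.64, 3.25, 3.76, 3.13 and 1.92 CPM, against 9.02 and 11.8 CPM in the control (log2 -1.82, SE 0.28, adjusted p = 0.00807). Appl, the fly relative of the amyloid precursor protein, fell by 1.01 (SE 0.17, adjusted p = 0.0112), with Tob (log2 -1.41) and mura (log2 -1.10) lower as well. Pka-C1, Pka-R2, Cam, orb2, Appl, Tob and mura were named after their values were seen. None of the lower channel, synaptic, receptor, second messenger and translational control genes named here differed past the threshold between CBS-/- and CSE-/- heads. Their adjusted p ran from 0.137 (SK, log2 -1.17) to 0.963 (Appl, log2 -0.04, edgeR). In CSE-/-, scaled over all 15 libraries, Sh had 8.43 to 26.1 and Appl 15.2 to 29.4 CPM.

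**Figure D4:**
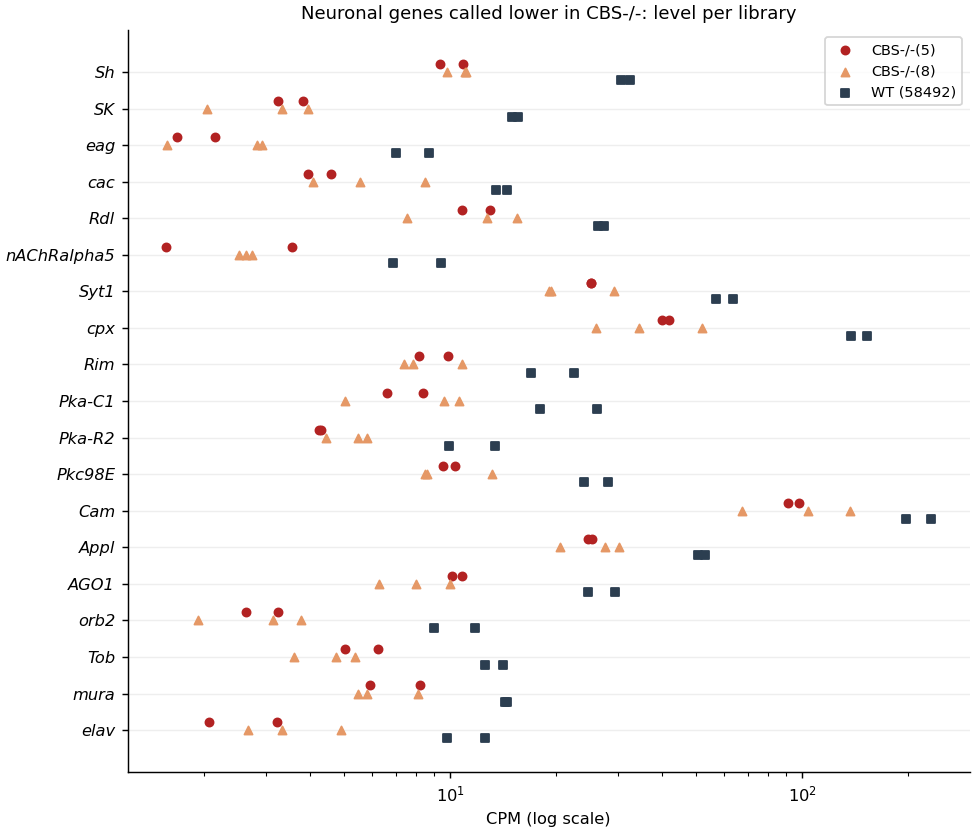
CPM per library (log scale) of 19 neuronal genes called lower, in CBS-/-(5), CBS-/-(8) and WT (58492). In every row, like nearly all genes called lower, both control libraries lie above all 5 CBS-/- libraries. For Sh they lie at 30.5 and 32.5 CPM, against at most 11.1 CPM.

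Of 7 general neuron markers, 2 were lower (28.6%), 5 had a negative log2 fold change, and the median was -0.29. Their summed level was 457, 549, 392, 584 and 488 CPM in the CBS-/- libraries, against 495 and 359 CPM in the control, and the groups overlapped. Of these markers elav, an RNA-binding protein of neurons chosen after its values were seen, had 3.22, 2.07, 2.67, 4.89 and 3.34 CPM, against 12.6 and 9.79 CPM in the control (log2 -1.78, SE 0.31, adjusted p = 0.0138), Syt1 was lower as given above, and the other 5 were not called. The share of reads that fell on overlapping genes and were not counted was 5.12 to 5.64% in the CBS-/- libraries, against 6.7 and 8.27% in the control. Lower members of the 4 neuronal lists were long transcripts: the median exonic length was 8222 bp for the 21 lower genes and 5246 bp for the 81 not called, while over all lower genes it was 1774 bp, against 2122 bp over all genes tested. The part of read assignment and transcript length in the neuronal result was not tested. Without control replicate 3, 1 of 39 learning and memory genes was called lower, and without control replicate 1 it was 9.

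In the eye, 2 of 26 phototransduction genes were lower (7.69%) and 2 were higher, a lower share near the 5.23% of all genes. ninaD, the scavenger receptor that takes up carotenoids for the visual chromophore, had 3.71, 4.83, 6.27, 6.35 and 5.36 CPM in the CBS-/- libraries, against 84.8 and 88.3 CPM in the control (log2 -4.03, SE 0.20, adjusted p = 4.8e-05). norpA, the phospholipase C of phototransduction, had 163 to 216 CPM, against 385 and 362 CPM in the control (log2 -1.01, SE 0.17, adjusted p = 0.0128). The higher genes were Rh6, described above, and Rh2, the rhodopsin of the ocelli, with 292, 306, 342, 399 and 385 CPM, against 206 and 185 CPM in the control (log2 0.82, SE 0.20, adjusted p = 0.0472). The call of Rh2 was lost with RLE factors, without a filter on low counts and without any single library other than CBS-/-(8) replicate 1. DESeq2 called 7 phototransduction genes higher. The summed photoreceptor markers were 41642 to 52033 CPM in the CBS-/- libraries, against 42092 and 43269 CPM in the control, and overlapped. Of 16 eye pigment genes, v, the tryptophan dioxygenase of ommochrome synthesis, was lower (log2 -1.59, SE 0.27, adjusted p = 0.0123), together with Hn. Of 14 glial genes only repo, the glial transcription factor, was called, at 50.9, 54.8, 45.2, 51.5 and 53 CPM, against 29.3 and 32.6 CPM in the control (log2 0.72, SE 0.16, adjusted p = 0.0307). Its call was lost without a filter on low counts and without any single library other than CBS-/-(8) replicate 1.

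Among secreted and signalling genes of the head, CCHa2, a peptide hormone of gut and fat body, had 50.8, 55.1, 27, 50.3 and 35.4 CPM in the CBS-/- libraries, against 161 and 138 CPM in the control (log2 -1.77, SE 0.27, adjusted p = 0.0075), and Mip, the myoinhibiting peptide, was higher (log2 0.99, SE 0.20, adjusted p = 0.0237). The other 24 of 26 neuropeptide genes were not called. The clock transcription factor Pdp1 had 15.5 to 19.1 CPM, against 35.8 and 49.1 CPM in the control (log2 -1.34, SE 0.17, adjusted p = 0.00384), as the only one of 14 clock genes that passed. Of 29 odorant-binding proteins, Obp57a (log2 -1.63, adjusted p = 0.0168) and Obp19d (log2 -1.02, adjusted p = 0.0393) were lower and Obp56d (log2 1.31, adjusted p = 0.0126) and Obp8a (log2 1.11, adjusted p = 0.0457) were higher. Obp56d had 1299 to 1831 CPM, against 551 and 694 CPM in the control, with no overlap. Cuticular proteins had 2 of 33 lower and 3 higher, among them Cpr76Bc (log2 -1.66, adjusted p = 0.0298) and Lcp65Ac, which had 1.38 to 5.96 CPM, against 0.133 and 0.181 CPM in the control, at least 7.06-fold higher (adjusted p = 0.0185). The lower shares, 6.9% of odorant-binding and 6.06% of cuticular proteins, were near the 5.23% of all genes. The higher shares were 6.9% and 9.09%, against 1.44% of all genes.

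Neprilysins, zinc metallopeptidases that cleave extracellular peptides, were often called. Of 23 tested, 9 were lower (39.1%) and 2 were higher (8.7%), against 5.23% and 1.44% of all genes. The median log2 fold change of the 23 was -1.08. Nepl11 had 330, 323, 279, 199 and 260 CPM in the CBS-/- libraries, against 1053 and 1367 CPM in the control (log2 -2.12, SE 0.22, adjusted p = 0.00211). Nepl10 had 12.4 to 19.6 CPM, against 43.5 and 61.5 CPM in the control (log2 -1.63, SE 0.21, adjusted p = 0.00384). Nepl6 had 38 and 38.1 CPM in CBS-/-(5) and 16.8, 14.1 and 15.5 CPM in CBS-/-(8), against 135 and 220 CPM in the control (log2 -2.85, SE 0.43, adjusted p = 0.0075), and Nepl20 fell by 2.13 (SE 0.37, adjusted p = 0.0138). The higher members were Nepl5, described above, and Nep1, with 67.6 to 83 CPM, against 48.6 and 46.2 CPM in the control (log2 0.71, SE 0.16, adjusted p = 0.0382). Nepl6, Nepl20 and Nep1 were chosen after their values were seen. Without control replicate 3, 1 neprilysin was called lower and 1 higher.

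Housekeeping complexes shifted slightly with few calls. Of 77 cytosolic ribosomal protein genes 74 had a negative log2 fold change, with a median of -0.47, but only RpL24 was called (log2 -1.57, SE 0.39, adjusted p = 0.0485). RpL24 had 2895, 3077, 5055, 1567 and 2290 CPM in the CBS-/- libraries, against 6708 and 10975 CPM in the control. Of 62 nuclear genes of oxidative phosphorylation 57 were negative, the median was -0.45 and 3 were called, among them RFeSP, the Rieske protein of complex III (log2 -0.96, SE 0.21, adjusted p = 0.0314). Of 31 proteasome genes 30 were negative, the median was -0.42 and none was called by edgeR, while 13 were lower at an unadjusted p under 0.05. CBS-/-(8) replicate 1 was the CBS-/- library closest to the control for RpL24. Without it 26 ribosomal protein, 21 oxidative phosphorylation and 11 proteasome genes were called lower, and with DESeq2 on all 7 libraries 14, 11 and 4. Without control replicate 1, 1 proteasome gene was called lower. Without either CBS-/-(5) library or either control library, no ribosomal protein gene and no oxidative phosphorylation gene was called.

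**Figure D5:**
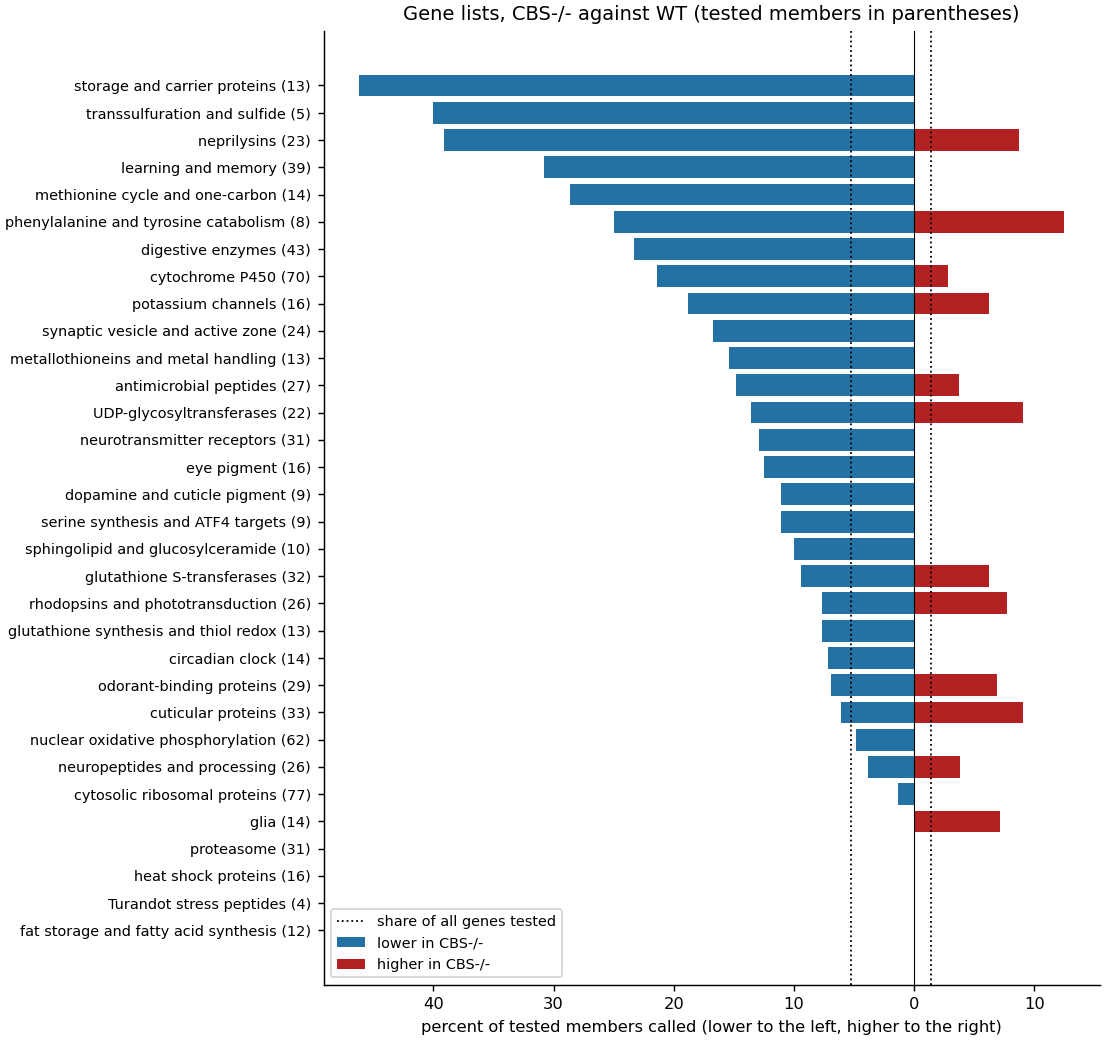
Percent of the tested members of each gene list called lower (bars to the left) or higher (bars to the right) in CBS-/- against WT, with the number tested in parentheses and dotted lines at the shares of all genes (5.23% and 1.44%). Storage and carrier proteins (46.2%), neprilysins (39.1%) and learning and memory genes (30.8%) stand among the longest bars to the left, and proteasome, heat shock, Turandot and fat storage lists have no bar.

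The calls were spread over the genome. Lower genes made up 6.05% of the tested genes of chromosome arm 2L, 5.33% of 2R, 5.66% of 3L, 4.21% of 3R and 5.15% of X, where Cbs lies, and 9 of 80 on chromosome 4 (11.2%). Higher genes made up between 0.879% (2R) and 2.02% (3L) on the large arms.

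Both CBS-/- strains were pooled, so they were also tested against each other. CBS-/-(5) had 273 genes lower and 65 genes higher than CBS-/-(8), and 25 of the 32 tested midgut markers were among the lower ones. Of the genes called against the control, 12 of the 497 lower and 5 of the 137 higher differed between the strains. For these the size of the change differed between the strains. Their sign was the same in both, as was nearly fixed by calling them in the pool. Lsp1beta was higher in CBS-/-(5) than in CBS-/-(8) by 3.29 on the log2 scale (adjusted p = 0.00235) and Lsp2 by 3.50 (adjusted p = 0.00102), whereas CG11034 was lower in CBS-/-(5) (log2 -2.23, adjusted p = 0.00488). For the nervous system genes described above, such as Sh, SK, cpx, Syt1 and AGO1, no difference between the strains passed the test (adjusted p of 0.924 to 1).

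Several of the largest changes were compared directly with CSE-/- heads, without use of the control libraries. All 12 of the most increased genes could be tested, and 8 were higher in CBS-/- than in CSE-/- heads, 1 was lower and 3 were not called. CG31219 was higher by 6.37 on the log2 scale (SE 0.30, adjusted p = 1.28e-05), with 0.107 to 0.367 CPM in the 3 CSE-/- libraries, scaled over all 15 libraries. Rh6 was higher by 4.64 (SE 0.44, adjusted p = 0.000923), with 8.24 to 10.3 CPM in CSE-/-, CG31205 by 3.72 (SE 0.39, adjusted p = 0.00149) and mbl by 1.94 (SE 0.31, adjusted p = 0.0167). Cyp6a2 was the exception: it was lower in CBS-/- than in CSE-/- heads (log2 -3.30, SE 0.37, adjusted p = 0.00267), with 523 to 914 CPM in CSE-/-. Nepl5, CG10550 and CG32750 had 211 to 560, 169 to 330 and 14.7 to 16.7 CPM in CSE-/- and did not differ past the threshold (adjusted p = 0.102, 0.687 and 0.274). Of the 12 most decreased genes 6 could be tested, and only Cbs itself differed (log2 -6.62, SE 0.38, adjusted p = 3.42e-05). Lsp1alpha, CG17571, CG7916, CG7953, CG33459 and mag did not enter this test. They had at most 0.749, 0.293, 0.293, 0.66, 0.513 and 0.535 CPM in CSE-/-. Srg3 had 4.42 to 9.63, Erasp 0.759 to 4.17, LysP 36.7 to 73.6, Lsp1beta 196 to 359 and Lsp2 79.6 to 342 CPM in CSE-/-. All of these levels lay below both control values given above, though those were scaled over 7 libraries. Drsl4 was lower in CBS-/- than in CSE-/- heads (log2 -4.71, SE 0.30, adjusted p = 4.48e-05), with 432 to 970 CPM in CSE-/-. ninaD had 4.6 to 10.9 CPM in CSE-/- and did not differ past the threshold (log2 -0.78, SE 0.30, adjusted p = 0.35). The 8 genes higher than in CSE-/- were not all high in the 5 libraries without both genes, which also lack CBS. There CG31219 had 0.0865 to 0.183, CG31664 0 to 0.205, CG11034 0.351 to 1.18 and CG7386 0 to 2.22 CPM. CG42329 had 4.64 to 10.2, CG31205 24.2 to 124, Rh6 66.1 to 341 and mbl 220 to 441 CPM in these libraries.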

How the data were processed

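Polyadenylated RNA of male heads was sequenced by the authors with a directional kit. They trimmed reads with Trimmomatic and mapped them to dm6 with STAR. SAMtools and featureCounts are also named in the submitters' processing notes. Tool versions, annotation release and the strand setting of the counting are not given in the sources used here. The deposited values are raw counts per gene, without normalization, for 17453 identifiers, of which 17179 had a symbol in Ensembl BDGP6.54. The coordinates and exon lengths come from that annotation. Reads on overlapping genes or on no gene stayed outside library sizes.

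From these counts, edgeR 4.0.16 (R 4.3.3) with filterByExpr, TMM factors (0.754 to 1.19) and the legacy quasi-likelihood F test compared 5 CBS-/- with 2 control libraries. Genes with a Benjamini-Hochberg adjusted p (over all tested genes) under 0.05 were called. The same settings were used for a fit of 3 groups (both strains and control) and for CBS-/- against CSE-/-. Nothing in the labels ties libraries of a strain to separate crosses, so p-values measure the spread between these libraries. In data simulated for this comparison with 200 changed genes (9372 genes tested), the test called 64.3% of genes set to a log2 change of -2, 76% at 2, 12.8% at -1 and 4.08% at 1. Of 82 calls 9 were false.

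Genes were named by a rule: Cbs, Cth and CG12279, the 12 largest changes in each direction among called genes with a mean of at least 5 CPM in the higher group, no overlap between the groups and no place among the midgut markers, up to 4 members with the smallest p of each list, and the 5 genes on each side of Cbs. Exceptions are stated. The members and lists were chosen with earlier results of these data known. Of the listed names 10 matched no identifier. Alternatives were RLE factors, DESeq2 1.42.0, other count filters, the newer quasi-likelihood method, separate strains, all 15 libraries, thinning to 6850445 counts, a replicate block, stricter thresholds and leaving out each library. Tables used pandas 2.3.3 and numpy 2.4.6 in Python 3.11.15, and plots matplotlib 3.10.9.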

Additional observations from a re-analysis of the deposited data

Results flagged for a closer look

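Among the 112 named genes with a test, 13 had a CBS-/- library far from the other 4 by Dixon's test at the 95% level. Chance alone flags about 1 group in 20. Yp1, Yp2, Yp3, Jon44E, Cyp4g1 and apolpp were chosen after their values were seen, so the count cannot be weighed against that share. Yp1, Yp2 and Yp3 were far higher in CBS-/-(8) replicate 5, at 603, 1158 and 1652 CPM. CBS-/-(8) replicate 1 stood apart most often. Its values were high for Gnmt (535 CPM), Cyp4g1 (1.73 CPM), CG7953 (3.92 CPM), CG7916 (0.784 CPM), CG17571 (0.157 CPM), Jon65Aii (0.314 CPM), Jon65Ai (0.784 CPM) and Jon44E (0.784 CPM), and low for apolpp (185 CPM). Most of these levels are a few counts. CBS-/-(8) replicate 2 was low for Cyp6a13, at 43.3 CPM.

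In 13 named genes the strains differed by the test of CBS-/-(5) minus CBS-/-(8) on the log2 scale. Over all 9496 genes tested, 338 differed. LysC, MFS1, CG13046, CG13071, mthl8 and Nepl6 were chosen after their values were seen, so the count of named genes is not independent of this pattern. Lsp2 (3.50), Lsp1beta (3.29), mthl8 (2.41), Nepl6 (1.30), Cpr76Bc (1.09) and CG31205 (1.06) were higher in CBS-/-(5). Srg3 (-1.80), CG10550 (-1.41), CG11034 (-2.23), LysC (-9.08), MFS1 (-8.69), CG13046 (-8.61) and CG13071 (-5.41) were lower in CBS-/-(5).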

How the results depend on the processing

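No named gene that was called changed sign under any alternative tried. The 497 lower and 137 higher genes became 765 and 421 with DESeq2, and the lower count became 767 with the strains as separate groups. At an adjusted p under 0.01 the counts were 168 and 19, and with a log2 fold change of at least 1 the higher count was 84. Leaving out single libraries gave 36 to 997 lower and 7 to 477 higher genes, with the lowest counts without control replicate 3 (which leaves 1 control library, assumed to vary like the others) and the highest without CBS-/-(8) replicate 1. Apart from the replicate block given below, all other settings stayed within 1.5 times. The log2 fold change of Cbs ranged from -7.86 to -7.38 when single libraries were left out. RLE factors ended the call of 7 of 99 named genes. With the replicate number as a block, 8 genes were lower and 3 higher. This block leaves CBS-/-(8) replicates 2 and 5 without information on the contrast. Deviations of same-numbered libraries from their strain means correlated at -0.171 and -0.192. In a strain with 2 libraries these deviations mirror each other, so the values cannot decide whether same-numbered libraries share a batch. No pairing was used, and a shared batch was not tested. A change of 1 on the log2 scale was seldom called in the simulated data, which held 200 changed genes and gave 82 calls. The real data gave 497 lower and 137 higher calls. The adjusted p depends on how many genes change, so the simulated rates may not carry over. Changes of that size can still be missed with 2 control libraries.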

Other observations

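A set of genes was expressed in CBS-/-(8) heads and was close to absent in both CBS-/-(5) and control heads. They were chosen after their values were seen, and none was called by edgeR in the comparison of pooled CBS-/- with control. DESeq2 on the same comparison called LysC and CG13071 higher, but not CG13046 or MFS1. CG13046 had 7.53, 5.28 and 4.45 CPM in CBS-/-(8), against 0 CPM in all CBS-/-(5) and control libraries. MFS1 had 11.8, 4.3 and 2.43 CPM in CBS-/-(8), against 0 CPM in the other libraries. CG13071 had 43.4, 24.9 and 33.9 CPM in CBS-/-(8) and 0.488 and 1.08 CPM in CBS-/-(5), against 0.133 and 0 CPM in the control. LysC, annotated as a pseudogene of the lysozyme cluster, had 355, 113 and 111 CPM in CBS-/-(8) and 0.586 and 0.0985 CPM in CBS-/-(5), against 0 CPM in both control libraries. Reads of LysC can be shared with near-identical lysozyme copies. mthl8 followed the other strain more closely, with 28.1 and 33.9 CPM in CBS-/-(5) and 5.8, 7.43 and 4.25 CPM in CBS-/-(8), against 0.398 and 0.725 CPM in the control (log2 4.84, SE 1.24, adjusted p = 0.0553 by edgeR, not called, and past the threshold under 7 of the alternatives). IBIN, an immune-induced micropeptide gene, had 17.2, 0.887, 3.45, 8.21 and 1.52 CPM in the CBS-/- libraries, against 0 CPM in both control libraries, and was not called by edgeR (adjusted p = 0.0995), but was with DESeq2.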
